A study of Mus musculus with 6 samples.

Results

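The genes that share a stretch of mouse chromosome 8 with Cdk10 were examined in CT26 cells, a mouse colon carcinoma line. Cdk10 is the gene of cyclin-dependent kinase 10 and the target of the guide used in the study. The members were all rows of the count table that GENCODE M21 annotates as protein-coding genes lying wholly between 122.2 and 124.2 Mb of chromosome 8 (build mm10, also called GRCm38), apart from Cdk10, Rpl13, Fanca and Zfp276. These were 43 genes of 57010 rows in the table. RNA sequencing had been done on 3 libraries of CT26 cells with a control guide (sgControl) and 3 with a guide against Cdk10 (sgCdk10), and the groups were read from the library titles. The sources used here do not give the guide sequences, their cut sites, the Cas9 construct, or whether each group was a pool of cells or a clone. Separate cultures are not named for the libraries either, so p-values measure only the spread among the libraries, which may be technical. The comparison asks whether expression around a targeted gene moved with it.

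A guide directs the Cas9 nuclease to cut a chosen DNA site, and repair of the break often leaves small insertions or deletions. Transcripts with a premature stop can be degraded, and larger rearrangements around cut sites are known to occur, which is one reason to look at neighbours of a targeted gene. The members do not form a pathway. They range from a replication licensing factor and a mechanically gated channel to enzymes of cholesterol synthesis and proteases of the mitochondrial inner membrane.

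Promoter sequences are shown for 5 members: the called genes of 2 head-to-head neighbour pairs with an ETS word (Taf5l and Chmp1a), 2 of the largest well-separated falls (Mvd and Ankrd11), and the larger of the 2 rises (Zfpm1). Each runs from 250 bases before to 50 bases after the RefSeq start on GRCm38.p6, read 5′ to 3′ on the gene's strand. ETS factors are named here because ETS2 is a known substrate of CDK10. Capitals mark the ETS core word CCGGAAG in Taf5l and Chmp1a, the CCAAT word in Mvd and Ankrd11, and the GC box word GGGCGG in Zfpm1, on either strand. Taf5l lies at chr8:124021348-124021647 on the minus strand, Chmp1a at chr8:123212739-123213038 on the minus strand, Mvd at chr8:122443373-122443672 on the minus strand, Ankrd11 at chr8:123042235-123042534 on the minus strand and Zfpm1 at chr8:122281891-122282190 on the plus strand.
Taf5l: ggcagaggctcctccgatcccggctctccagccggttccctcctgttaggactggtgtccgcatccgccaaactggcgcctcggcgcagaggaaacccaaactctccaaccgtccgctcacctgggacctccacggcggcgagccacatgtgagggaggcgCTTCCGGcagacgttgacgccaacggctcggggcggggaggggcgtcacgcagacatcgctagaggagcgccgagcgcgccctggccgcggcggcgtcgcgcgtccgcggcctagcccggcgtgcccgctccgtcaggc
Chmp1a: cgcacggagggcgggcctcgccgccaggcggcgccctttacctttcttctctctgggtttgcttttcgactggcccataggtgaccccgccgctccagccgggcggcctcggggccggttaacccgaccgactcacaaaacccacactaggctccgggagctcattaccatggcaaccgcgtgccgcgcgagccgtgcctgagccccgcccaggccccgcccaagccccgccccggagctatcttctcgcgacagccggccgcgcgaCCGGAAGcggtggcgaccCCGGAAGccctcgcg
Mvd: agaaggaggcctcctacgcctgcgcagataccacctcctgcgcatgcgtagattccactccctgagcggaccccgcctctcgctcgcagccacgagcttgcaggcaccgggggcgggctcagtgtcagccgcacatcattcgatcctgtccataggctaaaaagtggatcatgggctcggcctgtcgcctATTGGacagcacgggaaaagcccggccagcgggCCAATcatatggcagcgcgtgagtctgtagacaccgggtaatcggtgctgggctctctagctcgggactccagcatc
Ankrd11: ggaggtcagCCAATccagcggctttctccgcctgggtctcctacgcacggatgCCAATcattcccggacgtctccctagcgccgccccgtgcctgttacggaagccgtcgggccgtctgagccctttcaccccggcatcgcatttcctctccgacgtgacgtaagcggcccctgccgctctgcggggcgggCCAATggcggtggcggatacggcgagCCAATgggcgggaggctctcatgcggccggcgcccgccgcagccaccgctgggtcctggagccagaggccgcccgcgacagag
Zfpm1: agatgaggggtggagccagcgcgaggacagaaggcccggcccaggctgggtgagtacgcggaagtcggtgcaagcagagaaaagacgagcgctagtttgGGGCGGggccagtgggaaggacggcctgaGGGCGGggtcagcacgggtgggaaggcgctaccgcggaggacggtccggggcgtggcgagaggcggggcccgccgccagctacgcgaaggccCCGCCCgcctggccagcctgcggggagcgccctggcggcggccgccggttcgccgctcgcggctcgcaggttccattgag

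RefSeq promoters were found for 35 of the 43 members. The word CCGGAAG was in 5 of them (Chmp1a, Spata33, Taf5l, Urb2 and Zc3h18), or 14.3%, against 9.93% of all 27025 genes with a promoter in the table. The windows of Chmp1a and Spata33 share 169 bases and those of Taf5l and Urb2 share 199. The ETS words in these shared bases were counted for both genes of a pair. CCAAT was in 11 (31.4% against 41.1%) and GGGCGG in 29 (82.9% against 38.2%). The genes behind these background shares were not limited to protein-coding ones, whereas all members are protein-coding. The transcripts of the tested members were also richer in G and C, with a median of 55.4% against 49.7% over all tested protein-coding genes. A match is a run of letters and not evidence that a factor binds there.

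Totals lay between 17532202 and 19258309 counts per library, and 3 counts, taken as the limit of detection, amounted to 0.156 to 0.171 CPM (counts relative to the scaled library total). Library sgControl replicate 3 stood apart from the others in ways that touch these genes. The median over the tested members of log2 CPM was taken relative to the sgControl mean. It was 0.022 and 0.021 in sgControl replicates 1 and 2 but -0.066 in replicate 3. In sgCdk10 replicates 1, 2 and 3 it was -0.075, -0.11 and -0.099. Replicate 3 of the controls thus lay nearer to the sgCdk10 libraries than to the other 2 controls, although the groups did not overlap. Processed pseudogenes took 1.49% of its counts, against 1.35% to 1.39% in the other 5 libraries, and the part of this in the results was not tested. Of 10 epithelial and colon markers Epcam was at 0 in all libraries, 5 did not exceed 3 counts, and Krt18 and Krt20 were tested and rose. The summed level of all 10 of these markers was 36.1 to 40.0 CPM in sgControl and 57.6 to 58.9 in sgCdk10. Of 10 leukocyte markers 9 did not exceed 3 counts (summed level at most 0.620 CPM), with Cd3e, Cd8a, Ms4a1, Adgre1 and Ncr1 at 0. Of 9 endothelial, fibroblast and muscle markers Pdgfra, Pdgfrb and Des were tested, 1 rose, Lum was at 0, and the sum was 59.7 to 63.7 CPM in sgControl and 67.1 to 72.0 in sgCdk10. The part of these marker differences in the members' values was not tested.

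**Figure D1:**
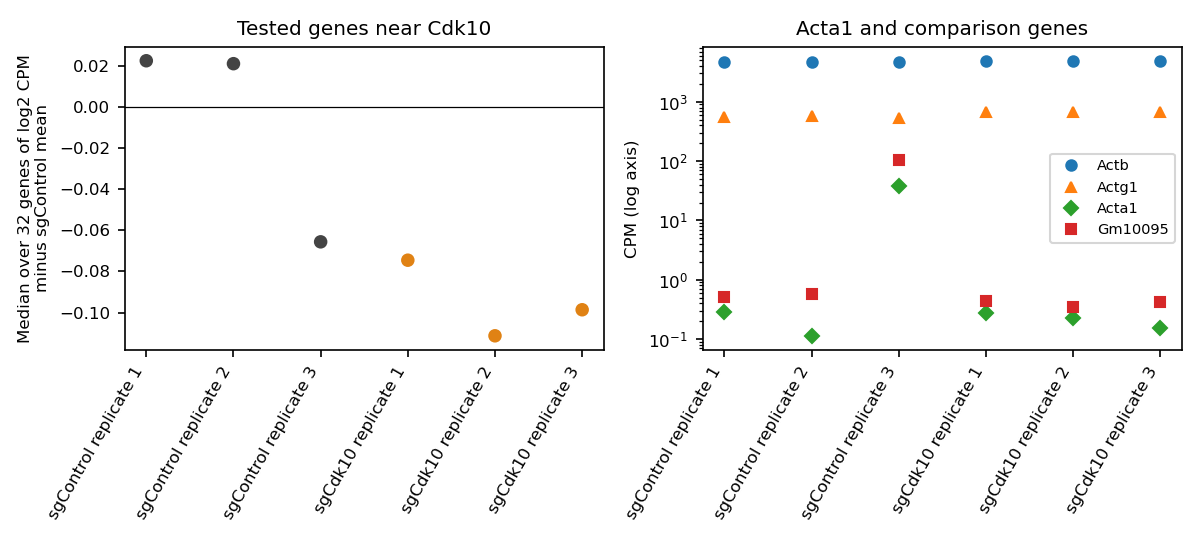
Left, the median over the 32 tested genes near Cdk10 of log2 CPM minus the sgControl mean, in each of the 6 libraries. Right, CPM on a log axis of Acta1, the actins Actb and Actg1 and the pseudogene Gm10095. On the left sgControl replicate 3 sits at -0.066 beside sgCdk10 replicate 1 at -0.075, and on the right Acta1 reaches 38.2 CPM in that control library alone.

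The targeted gene itself was lower: Cdk10 (123224842 to 123232250, plus strand) had 21.5, 19.4 and 20.1 CPM in sgControl and 11.3, 12.9 and 10.5 in sgCdk10, a log2 fold change of -0.82 with a 95% interval from -0.98 to -0.66. Its neighbours moved by less. Of the 43 members 32 passed the filter on low counts and were tested over the whole table with edgeR's quasi-likelihood test, and 15 of them were called at a Benjamini-Hochberg adjusted p of 0.05, or 46.9%, where 42.5% of all 13442 tested genes and 47.6% of the 11079 tested protein-coding genes were called. The direction was uneven: 13 were lower in sgCdk10 (40.6%, against 20.4% of all tested genes and 22.3% of protein-coding ones) and 2 were higher (6.25%, against 22.1% and 25.3%). Without regard to p, 24 of the 32 (75%) had a log2 fold change below 0, against 50.6% of all tested genes and 47.9% of protein-coding ones. Groups were fully separated in 19 of 32 (59.4%, against 51.4% of all tested genes and 55.9% of protein-coding ones). Of these 15 were lower (46.9%, against 24.8% and 26.0%) and 4 higher (background 26.6% and 29.9%). The median log2 fold change of the 32 was -0.084 (quartiles -0.21 and 0.00085), beside -0.0031 over all tested genes and 0.011 over all tested protein-coding genes. In bulk RNA a change in the mix of cells and a change in RNA per cell cannot be told apart.

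The called changes were small, 14 of the 15 being under 1.5-fold. No interval of the 32 reached a log2 fold change of -1, and 30 lay wholly above the -0.82 of Cdk10; the exceptions were Spata33 and Dbndd1, whose low counts gave wide intervals. DESeq2 called 8 members, 1 higher and 7 lower, and it also called fewer genes in all, 4179 against 5717 of 13442, with 14.8% lower. Leaving out sgControl replicate 1, sgCdk10 replicate 2 or sgCdk10 replicate 3 gave 9 calls each, 1 higher and 8 lower, where 18.2%, 16.4% and 16.6% of all genes then tested were lower. Under all 14 refits Zfpm1, Mvd, Piezo1, Ankrd11, Chmp1a, Afg3l1 and Taf5l were called in the same direction, and the other 8 calls were each lost at least in 2 refits.

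**Figure D2:**
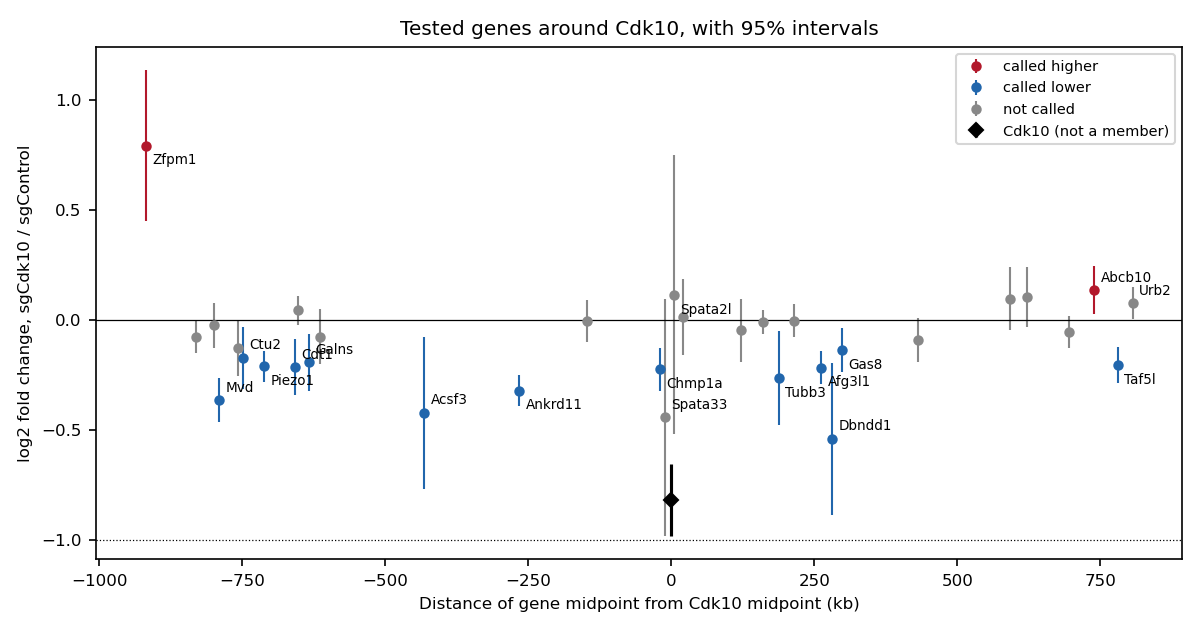
The log2 fold change of sgCdk10 against sgControl (points) with its 95% interval (bars) for each of the 32 tested genes, plotted by the distance of the gene's midpoint from that of Cdk10 in kb. The dotted line marks -1. Called falls (blue) occur on both sides and up to the far ends, while Cdk10 (black, -0.82) lies below all of its neighbours.

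Of the 4 tested genes closest to Cdk10 1, Chmp1a, was called lower, and the intervals of Spata33 and Spata2l were wide. Spata2l (123229801 to 123236233, minus strand), a little-described relative of SPATA2, has exons that overlap those of Cdk10 on the opposite strand, so their reads cannot be separated with certainty. Its counts were 15, 14 and 17 in sgControl, and in sgCdk10 20, 20 and 11, with overlapping groups and a log2 fold change of 0.11 whose interval was wide, from -0.52 to 0.75 (edgeR adjusted p = 0.794). Spata33, a testis-enriched gene that ends 2.8 kb before Cdk10 starts, was counted 26, 21 and 22 times in sgControl, and in sgCdk10 20, 14 and 18 times. All of its sgCdk10 values lay below its sgControl values, yet the change of -0.44 (interval -0.98 to 0.097) was not called (edgeR adjusted p = 0.183).

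Chmp1a, 12.1 kb from Cdk10, encodes a subunit of ESCRT-III, the membrane-cutting machinery. It was at 70.4, 72.6 and 64.2 CPM in sgControl and 62.0, 58.6 and 56.8 in sgCdk10. Every sgCdk10 library was below every control, and Chmp1a fell by 0.22 on the log2 scale (edgeR adjusted p = 0.00049; SE 0.05). Vps9d1, 10.1 kb away on the other side and a gene with a domain of RAB guanine nucleotide exchange factors, was at 25.6, 20.1 and 20.1 CPM in sgControl and 22.2, 22.7 and 21.4 in sgCdk10. Its groups overlapped, and its log2 fold change was 0.013 with an interval from -0.16 to 0.18. Some Vps9d1 exons are shared with opposite-strand genes, Zfp276 among them. Spire2, an actin nucleator 100.5 kb away, had a log2 fold change of -0.048 in overlapping groups, with 52.2 CPM in sgControl replicate 3 against 63.7 and 62.8 in the other controls. Without that library it was called lower, at -0.14 (edgeR adjusted p = 0.0062).

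By distance, 1 of 4 tested members within 0.1 Mb of Cdk10 was called lower and none higher. Between 0.1 and 0.5 Mb 6 of 11 were lower and 0 higher, and beyond 0.5 Mb 6 of 17 were lower and 2 higher. Over all tested genes 20.4% were lower and 22.1% higher. In order of distance the medians were -0.11, -0.14 and -0.076 and the means -0.14, -0.19 and -0.028, and 2 of 4, 11 of 11 and 11 of 17 members had a log2 fold change below 0. The difference between the distance groups was not tested. Of the 16 members that start before Cdk10 8 were lower and 1 higher (median -0.18), and of the 16 that start after it 5 were lower and 1 higher (median -0.028). The difference between the sides was not tested.

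The counts by role that follow stand beside 20.4% lower and 22.1% higher over all tested genes, and no role group was tested against these shares. Among the members that regulate transcription and chromatin 2 of 5 tested fell and 1 rose. Ankrd11, a large nuclear cofactor that binds histone deacetylases, was one of the most abundant members by CPM, with 449, 462 and 413 CPM in sgControl and 354, 359 and 347 in sgCdk10. The groups were well apart, and Ankrd11 fell by 0.32 on the log2 scale (edgeR adjusted p = 3.9e-07; SE 0.03). Its promoter, shown above, holds 4 copies of CCAAT. Tcf25, a gene of ribosome-associated quality control placed in this group for its older name as a transcription factor, lay 141.5 kb from Cdk10 and hardly varied. It had 431, 440 and 431 CPM in sgControl and 428, 432 and 434 in sgCdk10, a log2 fold change of -0.0081 with the narrow interval from -0.062 to 0.046. Zc3h18, which links the cap-binding complex to RNA decay, was at -0.078 and missed the threshold (edgeR adjusted p = 0.0732), though it was called lower without sgControl replicate 3.

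Zfpm1, the gene of the GATA cofactor FOG1 at the far end of the stretch, went the other way. Its counts were 82, 55 and 46 in sgControl, and in sgCdk10 112, 101 and 113. The 3 controls differed widely among themselves but all lay below the sgCdk10 libraries, and Zfpm1 rose by 0.79 on the log2 scale (edgeR adjusted p = 0.00051; SE 0.16). In level it went from 3.42 ± 1.08 to 5.93 ± 0.225 CPM (SD, n = 3). This was the only called member to change by more than 1.5-fold.

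At the opposite end Taf5l and Urb2 start head-to-head with 110 bases between their annotated ends. Taf5l encodes a subunit of the SAGA coactivator and Urb2 a factor of ribosome biogenesis. Their 300-base promoter windows share 199 bases, so the Taf5l sequence shown above, with its single ETS word, covers most of the Urb2 window as well. Taf5l was at 76.1, 76.5 and 77.2 CPM in sgControl and 63.6, 68.5 and 67.4 in sgCdk10, with groups well apart, and fell by 13.2% (log2 fold change -0.20, interval -0.29 to -0.12; edgeR adjusted p = 0.00018). Urb2 was at 100.5 to 105 CPM in sgControl and 106 to 111 in sgCdk10. All Urb2 values of sgCdk10 lay above those of sgControl, but the log2 fold change of 0.078 (interval 0.0058 to 0.15) was not called (edgeR adjusted p = 0.0760) except without sgControl replicate 3. The intervals of these neighbours did not overlap, and the difference between the genes was not tested.

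There were 3 other head-to-head neighbours among the members. Chmp1a and Spata33, with 68 bases between them and 169 shared promoter bases that hold 2 ETS words in the Chmp1a window, had log2 fold changes of -0.22 and -0.44, the second not called. Rnf166, a ubiquitin ligase gene, and Ctu2, with 78 bases between them, had -0.13 (not called) and -0.17. Galns, a lysosomal sulfatase gene, and Trappc2l, with 176 bases between them, had -0.19 and -0.076 (not called). Ctu2 also overlaps Piezo1 on the opposite strand, and its groups overlapped, with 26.4 CPM in sgControl replicate 3 against 25.5 to 28.4 in sgCdk10. Ctu2 was not called without sgControl replicate 1 or 2 or sgCdk10 replicate 1 or 3 (edgeR adjusted p = 0.168 to 0.208) or in DESeq2 (adjusted p = 0.136). The same held for Ctu2 in limma-voom (adjusted p = 0.0762) and with non-robust dispersions (edgeR adjusted p = 0.0639). For Galns the call was lost without sgControl replicate 1 or sgCdk10 replicate 2 or 3 (edgeR adjusted p = 0.0502 to 0.119) and in DESeq2 (adjusted p = 0.0911).

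Of the 7 tested members of mitochondria and metabolism 4 fell and 1 rose. Mvd, which makes isopentenyl diphosphate in the mevalonate pathway toward cholesterol, was at 84.6, 80.1 and 73.3 CPM in sgControl and 64.4, 60.4 and 60.1 in sgCdk10. The lowest control was above the highest sgCdk10 library, and Mvd fell by 0.36 on the log2 scale, or 22.3% (edgeR adjusted p = 2.1e-06; SE 0.05). Both genes of m-AAA protease subunits in this stretch were expressed. Afg3l1 was at 105, 107 and 98.6 CPM in sgControl and 89.4, 89.7 and 88.4 in sgCdk10, a clear separation and a fall of 0.22 on the log2 scale (edgeR adjusted p = 3.6e-05). Spg7, its partner subunit, was at 57.0, 56.0 and 51.2 CPM in sgControl and 54.3, 54.6 and 54.6 in sgCdk10. Those groups overlapped, with a log2 fold change of -0.0049 and an interval from -0.0998 to 0.090.

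The other called members of this group were at the margin of the test. Acsf3, a mitochondrial acyl-CoA synthetase gene, was counted 54, 69 and 60 times in sgControl, against 43, 47 and 50 times in sgCdk10, and fell by 0.42 on the log2 scale (edgeR adjusted p = 0.0444). The call was lost without any single library other than sgControl replicate 1 (edgeR adjusted p = 0.0509 to 0.198), with the replicate block (edgeR adjusted p = 0.0550) and in DESeq2 (adjusted p = 0.192). Acsf3 was also not called in limma-voom (adjusted p = 0.0515), without a filter (edgeR adjusted p = 0.0832) or with non-robust dispersions (edgeR adjusted p = 0.0536). Abcb10, a mitochondrial transporter of heme-related metabolism, went from 27.7 ± 0.353 CPM in sgControl to 30.5 ± 0.662 in sgCdk10 (SD, n = 3), and its groups did not overlap. It rose by 0.14 on the log2 scale (edgeR adjusted p = 0.0420), a call lost without any single library (edgeR adjusted p = 0.0689 to 0.146), with the replicate block (edgeR adjusted p = 0.0616) and in DESeq2 (adjusted p = 0.210). Abcb10 was also not called without a filter (edgeR adjusted p = 0.0922) or with a correction for GC content and length (edgeR adjusted p = 0.128). Aprt, the adenine salvage enzyme, had the highest level per kb of exon of all members, 119 CPM per kb in sgControl and 122 in sgCdk10. Tcf25 came next with 80.5 and 80.1 CPM per kb and Cyba, the p22phox subunit of NADPH oxidases, with 50.9 and 50.1. None of these 3 was called; their log2 fold changes were 0.043, -0.0081 and -0.024.

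Of the 4 tested members of replication, RNA and ribosome Cdt1 and Ctu2 fell. Cdt1 loads the MCM helicase onto replication origins. It was at 148, 153 and 128 CPM in sgControl and 123, 122 and 124 in sgCdk10, with sgControl replicate 3 closest to the sgCdk10 libraries, and fell by 0.21 on the log2 scale (edgeR adjusted p = 0.0125; SE 0.06). It was not called without sgControl replicate 1 (edgeR adjusted p = 0.0546) or sgCdk10 replicate 2 (edgeR adjusted p = 0.0518). Nup133, a scaffold subunit of the nuclear pore, was at 102 ± 0.723 CPM in sgControl and at 98.3 ± 4.02 in sgCdk10, a log2 difference of -0.055 (interval -0.13 to 0.019). Of the 6 tested members of vesicle traffic and membranes only Chmp1a was called. Def8 (-0.0031), a regulator of lysosome positioning, and Rab4a (0.097), a GTPase of endosome recycling, were not.

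Of the 4 tested members of signalling, surface and immune function only Piezo1, the mechanically gated cation channel, was called. Piezo1 was at 186, 185 and 175 CPM in sgControl and 160, 162 and 150 in sgCdk10. Those values did not overlap, and Piezo1 fell by 0.21 on the log2 scale (edgeR adjusted p = 2.4e-05; SE 0.03). Rnf166 and the GTPase gene Rhou had all sgCdk10 values below all sgControl values without passing the test (edgeR adjusted p = 0.0931 and 0.147). Among cytoskeleton and cilia genes Tubb3 and Gas8 fell and Ccsap was not called. All Ccsap values of sgCdk10 lay above those of sgControl (edgeR adjusted p = 0.221). Tubb3, a beta-tubulin best known from neurons, was at 8.63, 9.32 and 7.77 CPM in sgControl and 7.34, 6.88 and 7.16 in sgCdk10, a fall of 0.27 on the log2 scale (edgeR adjusted p = 0.0409). The Tubb3 call was lost without any single library except sgControl replicate 3 (edgeR adjusted p = 0.0647 to 0.185), with the replicate block (edgeR adjusted p = 0.0571) and in DESeq2 (adjusted p = 0.185). Tubb3 was also not called in limma-voom (adjusted p = 0.05003), without a filter (edgeR adjusted p = 0.0765) or with non-robust dispersions (edgeR adjusted p = 0.0503). Gas8, a component of the axonemal dynein regulatory complex, fell by 0.14 (edgeR adjusted p = 0.0252), and was not called without sgControl replicate 1 or sgCdk10 replicate 1 or 2 (edgeR adjusted p = 0.0559 to 0.163) or in DESeq2 (adjusted p = 0.0986). Dbndd1, a little-described gene, was counted 66, 86 and 104 times in sgControl, against 67, 61 and 52 times in sgCdk10. By CPM its lowest control, 3.72, was barely above its highest sgCdk10 library, 3.70. It fell by 0.54 on the log2 scale (edgeR adjusted p = 0.0111; SE 0.17). The Dbndd1 call was lost without sgControl replicate 3 (-0.39; edgeR adjusted p = 0.0613) or sgCdk10 replicate 3 (-0.41; edgeR adjusted p = 0.0839) and in DESeq2 (adjusted p = 0.0556).

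**Figure D3:**
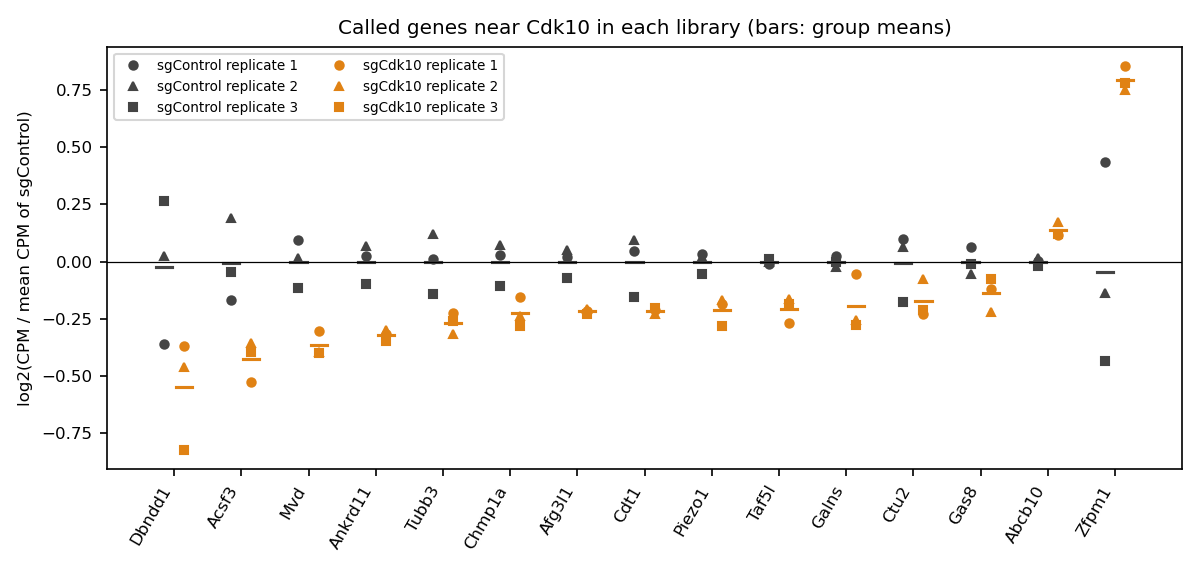
For each of the 15 called genes near Cdk10, log2 of CPM over the mean CPM of sgControl in every library; short bars are the means of these values per group. The sgControl points of Zfpm1 and Dbndd1 spread widely, while those of Taf5l and Abcb10 lie close together.

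The 17 tested members that were not called were not shown to be unchanged. For the 15 of them with at least 5 CPM in either group the intervals lay between -0.26 and 0.24 on the log2 scale, which bounds a difference in each. The 11 members that were not tested were mostly near or under the limit of detection. Trhr2, Snai3, Pabpn1l, Cdh15, Cpne7 and Dpep1 had at most 3 counts in any library, with Cpne7 at 0 in all 6, which allows up to 0.171 CPM. Il17c had up to 4 counts, Cbfa2t3 9, Mc1r 11 and Sult5a1 16, so no difference was detectable for them at this depth.

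Acta1, the skeletal muscle actin gene at 123891769 to 123894751 on the minus strand, was the exception. Its counts in sgControl replicates 1, 2 and 3 were 5, 2 and 693, and those in sgCdk10 5, 4 and 3. The high value was thus in 1 control library, and the filter removed the gene because too few libraries reached the minimum. Among all rows of the table Acta1 had the second highest ratio of sgControl replicate 3 to the highest other library, after the processed pseudogene Gm10095 (103.8 CPM in that library and 0.341 to 0.565 in the other 5), which was picked out after its values were seen. Of the 20 highest rows by that ratio 16 were processed pseudogenes, 2 were transcribed processed pseudogenes and Acta1 was the only protein-coding gene. Other muscle genes did not move with it: Myog, Acta2 and Actc1 were at 0 in all libraries, Ckm was at 0.0565 CPM in sgControl replicate 2 and at 0 in the others, and Des was at 1.32 CPM in sgControl replicate 3 against 0.682 to 1.09 elsewhere. The cytoplasmic actins, paralogs of Acta1, were abundant. Actb was at 4766 CPM in sgControl replicate 3 and at 4625 to 4921 CPM in the other 5 libraries. Reads can be divided between such paralogs, and the source of the Acta1 reads was not tested.

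Several members work in complexes or pathways whose other genes lie elsewhere, and those were counted for comparison, beside the 20.4% lower and 22.1% higher among all tested genes. Mvd moved as its pathway did: of 7 other genes of the mevalonate pathway 6 fell and 0 rose (median -0.27), among them Hmgcs1 by 0.35 (edgeR adjusted p = 3.3e-09) and Fdft1 by 0.23 in log2. Of 17 replication licensing genes 9 fell and 2 rose (median -0.12), including the helicase subunit Mcm6 by 0.31 (edgeR adjusted p = 3.7e-09) and the origin recognition subunit Orc6 by 0.26, beside 0.21 for Cdt1. Of 15 tested SAGA genes 5 fell and 2 rose (median -0.069), with Taf10 falling by 0.44 and Eny2 by 0.27, beside 0.20 for Taf5l.

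Counts for the other lists follow. Of 12 genes of ESCRT-III and VPS4 2 fell and 1 rose (median -0.0011); Chmp3 fell by 0.32 and Chmp5 rose by 0.32. Of 8 genes that act with Zc3h18 on capped nuclear RNA 4 rose and 0 fell (median 0.092), such as Ncbp2 by 0.29 and Mtrex by 0.15. Of 10 genes of tRNA wobble uridine modification, the process of Ctu2, 5 fell and 1 rose (median -0.10), with Elp4 falling by 0.48. Among 6 genes of inner membrane quality control Phb2 fell by 0.16, Oma1 fell by 0.49 and 0 rose (median -0.063), while Afg3l2, the main partner of Spg7 and Afg3l1 (named after its values were seen), had 0.065 (edgeR adjusted p = 0.157). Of 8 genes of the Nup107-160 complex 3 fell and 0 rose (median -0.069), including Nup160 by 0.20 and Nup85 by 0.16.

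Of 13 TRAPP genes 2 rose and 2 fell (median -0.027), with Trappc6a rising by 0.45 and Trappc6b by 0.27. Of 9 genes of adenine salvage and purine exchange 2 rose and 2 fell (median 0.016), Ampd3 rising by 0.81 and Adk falling by 0.28. Of 8 NADPH oxidase genes only Noxo1 was tested, which missed the threshold (edgeR adjusted p = 0.293). Of 7 COG complex genes, listed for Cog2, which proved to lie outside the stretch, 2 rose and 1 fell (median -0.0083), Cog5 rising by 0.22 and Cog6 by 0.14.

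**Figure D4:**
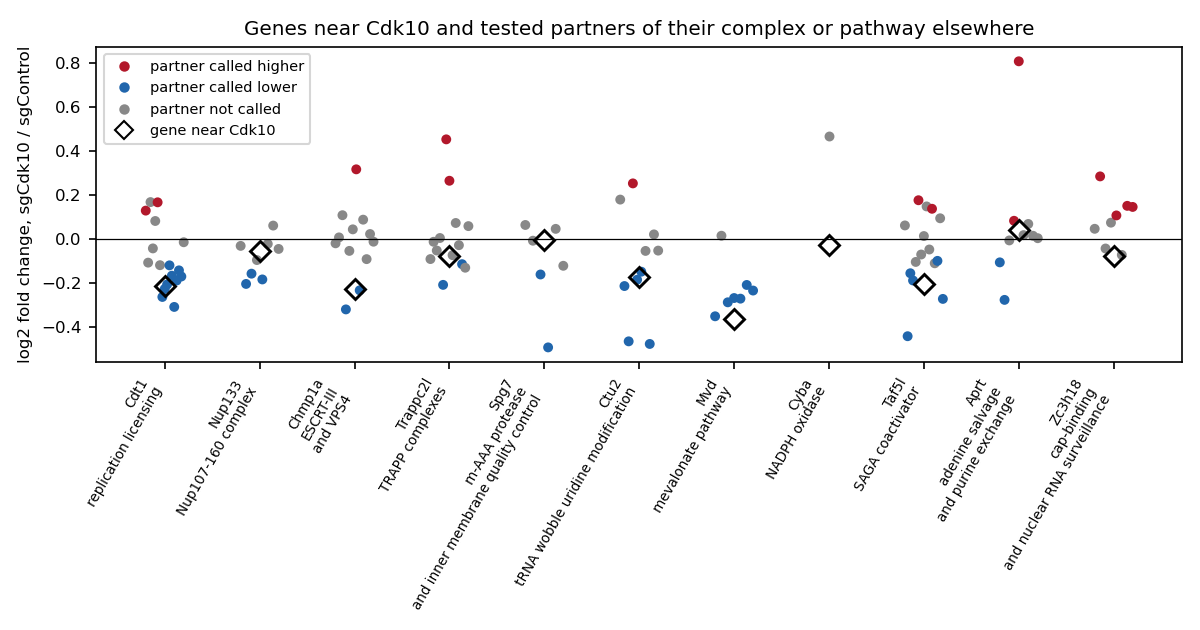
The log2 fold change of a gene near Cdk10 (open diamond) beside those of the tested genes of its complex or pathway elsewhere in the genome (points, coloured by call). Mvd (-0.36) stands with 6 called falls among 7 partners, and Zc3h18 (-0.078) stands below partners of which 4 were called higher and 0 lower.

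The stretch was then set beside other 2 Mb windows. The genome was cut into windows in step with this stretch, and 383 other windows held at least 10 tested protein-coding genes. Their medians of log2 fold change ran from -0.196 to 0.466, with quartiles of -0.035 and 0.048. The median of the members, -0.084, was undercut by 26 windows, or 6.79%, while 20.6% had a median farther from 0 in either direction. The share of genes called lower, 40.6% in the members, was exceeded in 21 windows (5.48%), where the typical window had 22.2%. Small windows spread more: with at least 20 tested genes per window 1.39% of the windows had a lower median, and of 80 windows with 24 to 40 tested genes, a range chosen after the values were seen, 1 had a lower median. No test was made of this position, and no correction for the choice of this stretch is possible.

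The position depended on the libraries. Without sgControl replicate 3 the members' median was -0.13 and 3.08% of windows were lower, and without sgCdk10 replicate 2 it was -0.057 and 16.5% were lower. Leaving out sgControl replicate 2 or sgCdk10 replicate 3 gave 10.9% and 4.13%. With a correction for GC content and length, added after seeing the data, the median was -0.12 and 2.35% of windows were lower. Restricting the members to the 24 whose exons overlap no other gene gave a median of -0.11.

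**Figure D5:**
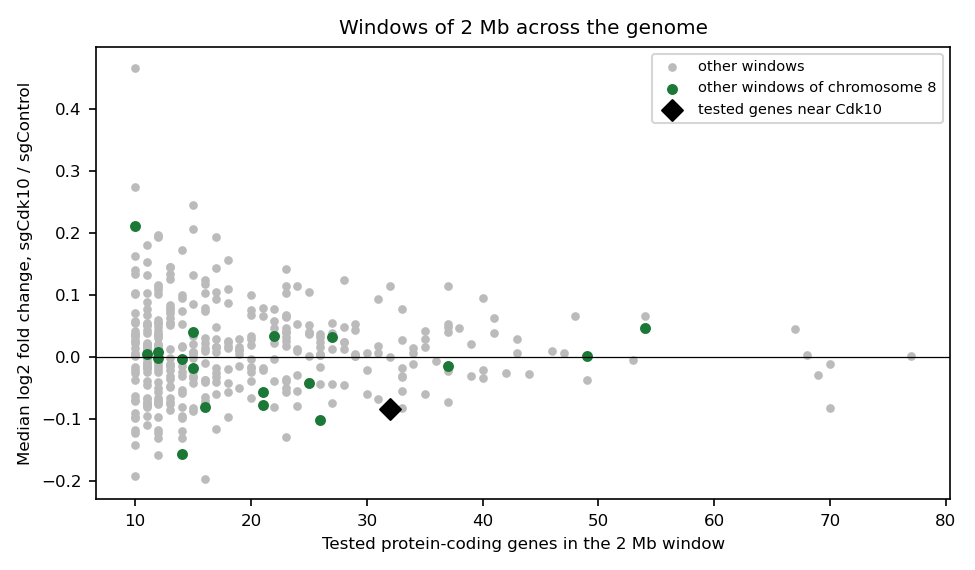
The median log2 fold change of each 2 Mb window against its number of tested protein-coding genes, for 383 other windows (grey, with those of chromosome 8 in green) and the 32 tested genes near Cdk10 (black diamond). Medians of small windows scatter more widely, and the diamond at -0.084 lies near the lower edge of windows of its size.

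The shift did not extend to the median of chromosome 8 as a whole. The 571 tested protein-coding genes of that chromosome outside the stretch had a median of 0.0020, with 152 called lower and 135 higher. Among all tested protein-coding genes 22.3% were lower and 25.3% higher. Of the 18 other windows of chromosome 8 2 had a lower median than the members. The next window toward the end of the chromosome was one of these, at -0.157 over 14 genes, whereas the window before the stretch had -0.0175 over 15 genes. The nearest tested protein-coding genes outside each boundary are given for comparison. Before the stretch Banp, a nuclear matrix and promoter-binding protein gene that ends at 122029258, went from 15.6 ± 1.94 to 28.1 ± 0.639 CPM (SD over 3 libraries each). This is 0.86 in log2, beside 0.79 for Zfpm1, the first tested member inside. Beyond Banp, Slc7a5, a subunit of an amino acid transporter, went from 650.3 ± 6.51 to 393 ± 1.61 CPM, which is -0.73 in log2. After the stretch Galnt2, a mucin-type glycosyltransferase gene, had -0.048, beside 0.078 for Urb2, the last tested member inside. Beyond Galnt2, Cog2, the gene of a Golgi tethering subunit that starts at 124520767, had -0.18.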

How the data were processed

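RNA of CT26 cells (3 sgControl and 3 sgCdk10 libraries) was represented by 1 table of counts per Ensembl gene, deposited by the authors as whole numbers. Build mm10, the aligner HISAT2 2.2.1 and the counter featureCounts 2.0.3 are listed in the submitters' processing notes, beside DESeq2 1.40.2. The sources used here give neither strand setting nor annotation release, so overlapping genes and near-identical copies cannot be separated with certainty. Symbols, coordinates and exons came from GENCODE M21 (52029 of 57010 identifiers matched).

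Genes were kept by filterByExpr (minimum count 10, minimum total 15), which left 13442, and libraries were scaled by TMM. The groups were compared with edgeR 4.0.16 in R 4.3.3 (quasi-likelihood test, robust dispersions, group only), with adjustment over all tested genes. Standard errors were taken from the F statistic, and CPM uses TMM-adjusted totals. Alternatives used DESeq2 1.42.0, limma 3.58.1 (voom), other scaling, filters and dispersions, a replicate block, each library left out, and, added after seeing the data, a loess correction for GC content and length (span 0.5). Detection limits cover counting error only.

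The members and lists were chosen with earlier results of these data known. Named genes were the 10 largest called rises and falls, the 5 tested members nearest Cdk10 on each side, the 3 highest levels per kb, and the 2 smallest p-values of each partner list (1 such gene is not reported here); Afg3l1, Rhou and Trhr2 were added to the role groups later, and members outside this rule were described after their values were seen, to account for all. The script was tested on simulated counts.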

Additional observations from a re-analysis of the deposited data

How the results depend on the processing

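DESeq2 called 8 members (1 higher, 7 lower) against 15 (2 and 13). Over all tested genes it called 14.8% lower, against 20.4%. Without a filter 12 members were called, 1 higher and 11 lower. Of all 27130 genes then tested 5600 were called in either direction, and 10.1% of all were lower. The median over the 42 members then tested was -0.13 against -0.084. With GC and length correction, chosen after seeing the data, 19 were called (17 lower). In that refit 5981 of all 13442 tested genes were called, and 23.2% of all were lower. The members' median was -0.12 and 2.35% of windows were lower, against 6.79%. At least 20 genes per window gave 1.39%. With a library left out calls ranged from 9 to 15, those higher from 1 to 2 and lower from 8 to 13. Of all genes then tested 16.4% to 22.2% were lower. The members' median ranged from -0.13 to -0.057 and the share of lower windows from 3.08% to 16.5%. The replicate block gave 12 calls, 1 higher and 11 lower, and lost Acsf3, Tubb3 and Abcb10. With it 5481 of all 13442 tested genes were called, and 19.5% of all were lower. Deviations from the group means correlated between libraries of the same number at 0.025, -0.057 and -0.096. Whether such libraries share more than a number was not tested. The cause of the changes between settings was not tested.

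Among 20 named members 227 of 279 alternative values kept direction and side of the threshold. With libraries left out the sign changed for Cyba (-0.079 to 0.013), Spg7 (-0.055 to 0.025), Spata2l (-0.046 to 0.38), Vps9d1 (-0.052 to 0.14), Spire2 (-0.14 to 0.0032) and Tcf25 (-0.017 to 0.0028), and with GC and length correction for Cyba (0.0066) and Vps9d1 (-0.061). None of these 6 was called as reported. Depth limits Spata2l, Spata33 and the untested members.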

Other observations

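The window that follows, from 124.2 to 126.2 Mb of chromosome 8, held 14 tested protein-coding genes, of which 7 were lower and 2 higher in sgCdk10 by edgeR's quasi-likelihood test, beside 22.3% lower and 25.3% higher among all tested protein-coding genes. Its genes were looked at after the median of the window had been seen. Exoc8, an exocyst subunit gene, went from 30.6 ± 1.52 to 22.7 ± 0.860 CPM (SD, n = 3; log2 fold change -0.43; edgeR adjusted p = 1.9e-06). Arv1, a gene of sterol transport in the endoplasmic reticulum, fell by 0.32 and Sprtn, a protease that removes DNA-protein crosslinks, by 0.27 on the log2 scale. Egln1, the gene of the HIF prolyl hydroxylase PHD2, went the other way, from 93.0 ± 3.46 to 149 ± 2.30 CPM, a rise of 0.68 on the log2 scale (edgeR adjusted p = 5.6e-14; SE 0.03). Its change was thus larger than that of any called member near Cdk10 except Zfpm1.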
